A study of Mus musculus with 10 samples.

Results

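The genes described here are 37 genes of fatty acid oxidation and of the PPARA response listed by name, out of 23969 gene symbols in the table. The list was drawn up from known gene function and with earlier results of these data known. All 37 were in the table, each on a single row, and all 37 passed the filter on low values, among 11454 genes that did so. They were sorted by role into 5 regulators, 5 genes of fatty acid activation and the carnitine shuttle, 8 of the mitochondrial oxidation spiral, 8 mitochondrial auxiliary genes, 5 peroxisomal genes, 2 ketone body genes and 4 PPAR targets that act in the cytosol, in other mitochondrial pathways or outside the cell.

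Bulk RNA sequencing was done on cells sorted from the proximal jejunum of Lgr5-eGFP-IRES-CreER mice, in which GFP is made from the Lgr5 locus. LGR5 binds R-spondins and marks crypt base stem cells. Every mouse carried this allele and had received an adenovirus into a vein. The virus carried Rspo1 (AdRspo1, R-spondin gain of function, 3 libraries), the extracellular domain of LGR5 (AdLGR5 ECD, R-spondin loss of function, 3 libraries) or Fc (AdFc, control, 2 libraries). There was no group without virus, the labels give no age, sex, viral dose or time of harvest, and the samples are described in the series text as biological replicates. Neither the sort nor the sample is stated in the names of the control columns. Given the series text they were taken as GFP-positive Fc cells, and all values against the control depend on this. The 2 GFP-negative control samples were not analysed here.

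Fatty acids are activated to acyl-CoA at the cell's membranes, carried into mitochondria by the carnitine shuttle and shortened there in a repeating spiral of dehydrogenation, hydration, a further dehydrogenation and thiolysis. Peroxisomes shorten very long chains by a parallel route, and in liver and young intestine part of the acetyl-CoA can leave as ketone bodies. PPARA, a nuclear receptor that binds fatty acids, pairs with RXR on direct repeats of a hexamer and switches on many of these enzymes. In the intestine PPARA and its relative PPARD act in absorptive cells and in stem cells, and fatty acid oxidation is known as a fuel of crypt stem cells.

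Values are FPKM, fragment numbers scaled by transcript length and by library, so levels can be set side by side between genes. The FPKM sums ran from 189335 to 275937 per library and read totals are not known. Genes above 0 numbered 11485 in LGR5-ECD replicate 3 and 13417 to 14197 elsewhere. Lgr5 stood at 96.4, 112.7 and 100.2 FPKM in Rspo1, 40.6 and 22.0 FPKM in the control and 8.31, 2.84 and 4.28 FPKM in LGR5-ECD. The sort gate reads the same locus, so the sorted cells may not be the same population in each group. In bulk libraries fewer cells of a type and less RNA per cell cannot be told apart. Log2 changes are differences of log2(FPKM + 1), so for low genes they are smaller than the change in FPKM itself. A gene was called when its adjusted p in limma, with Benjamini-Hochberg adjustment over all 11454 genes, was under 0.05.

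The comparison of R-spondin gain with loss of function had 3 libraries on each side. In it 2 regulators of lipid catabolism, Ppara and Creb3l3, fell in Rspo1 relative to LGR5-ECD, and the lipid droplet coat gene Plin2 rose. None of the 8 genes of the mitochondrial spiral, the 8 mitochondrial auxiliary genes, the 5 shuttle genes, the 5 peroxisomal genes or the 2 ketone body genes passed the test. The 3 calls are 8.11% of the 37 genes, against 8.45% of all tested genes called in this comparison (4.92% higher and 3.54% lower), so the number of calls was near the background. The sizes of the changes leaned one way. The median log2 change of the 37 genes was -0.23, against 0.08 over all tested genes, and 30 of the 37 lay at or below that all-gene median. The median of the 37 genes was -0.36 without LGR5-ECD replicate 3 and -0.15 without LGR5-ECD replicate 2, the extremes of 15 alternatives. In 11 of the 37 genes (29.7%) all 3 Rspo1 libraries lay below all 3 LGR5-ECD libraries, as they did in 12.1% of all tested genes. In 1 of the 37 (2.70%) they lay above, against 18.9% of all tested genes. At an unadjusted p under 0.05, 10 of the 37 were lower and 3 higher, against 8.93% and 13.9% of all tested genes.

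**Figure D1:**
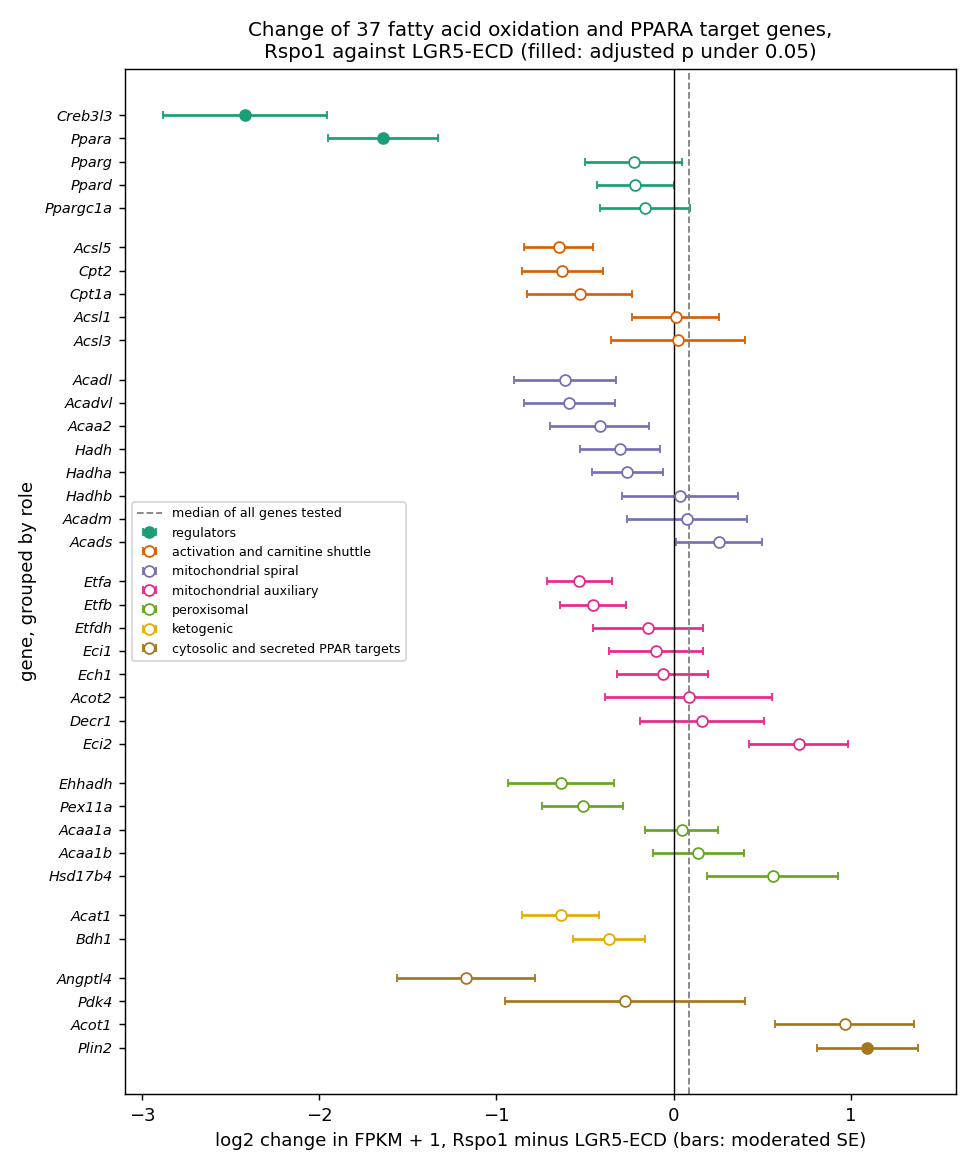
Log2 change in FPKM + 1 (x axis, Rspo1 minus LGR5-ECD, 3 libraries each) of the 37 genes (y axis), grouped and coloured by role, with moderated standard errors as bars. Filled points are the 3 genes with an adjusted p under 0.05, Creb3l3 at -2.42, Ppara at -1.64 and Plin2 at 1.09, and the dashed line at 0.08 is the median of all genes tested.

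Among the regulators, Ppara itself showed the smallest adjusted p of the 37 genes. It was listed at 5.37, 2.86 and 2.78 FPKM in the Rspo1 libraries, 12.2 and 8.66 FPKM in the controls, and 8.54, 17.8 and 14.8 FPKM in LGR5-ECD. All Rspo1 libraries lay below all libraries of both other groups, while the control values fell within the range of LGR5-ECD. Against LGR5-ECD the log2 change was -1.64 (SE 0.31, limma adjusted p = 0.00957). Without Rspo1 replicate 2 the adjusted p was 0.0516, and in the other 14 alternatives the call held.

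Creb3l3 encodes a membrane-bound transcription factor of liver and small intestine that acts with PPARA in the fasting response. Its values were 0.976, 1.80 and 2.09 FPKM in Rspo1, 1.60 and 6.47 FPKM in the control, and 6.51, 21.7 and 14.3 FPKM in LGR5-ECD. The treated groups did not overlap, and the lowest LGR5-ECD library was level with the higher control. The log2 change between the treated groups was -2.42 (SE 0.46, limma adjusted p = 0.01), and the call held in all 15 alternatives, with adjusted p from 0.00479 to 0.0488.

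The other regulators did not pass. Ppard, which encodes the PPAR with the broadest expression, was the most abundant of the PPAR genes in every library, at 29.3, 30.4 and 27.7 FPKM in Rspo1, 44.9 and 43.0 FPKM in the control and 42.0, 39.1 and 23.8 FPKM in LGR5-ECD. The LGR5-ECD libraries spanned the Rspo1 values (log2 change -0.22, SE 0.22, limma adjusted p = 0.614). Pparg, best known from fat cells, ran from 1.75 to 3.96 FPKM over the 8 libraries. Ppargc1a, which encodes the coactivator PGC-1 alpha that drives mitochondrial genes, ran from 4.25 to 8.13 FPKM. Both had overlapping groups and adjusted p of 0.685 and 0.761. Taken as a share of the summed FPKM of the PPAR genes, Ppara made up 14.8%, 7.78% and 8.46% in Rspo1, 20.4% and 15.8% in the control and 15.7%, 29.7% and 36.0% in LGR5-ECD. The Rspo1 shares were the lowest, with the highest of them just under the lowest of the others.

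The promoters of the 3 called genes are printed because PPARA-RXR pairs read a direct repeat with a spacer of a single base. The sequences are from RefSeq on build GRCm38.p6, whereas the table was made on mm9, and cover the 250 bases before the annotated start, 5′ to 3′ on the gene's strand. Capitals mark the best match to the repeat AGGTCANAGGTCA in Creb3l3 and Plin2, and TGACG, the core of the element bound by CREB family proteins, in Ppara. Ppara lies at chr15:85735526-85735775 (+ strand), Creb3l3 at chr10:81092592-81092841 (- strand) and Plin2 at chr4:86670060-86670309 (- strand).
Ppara: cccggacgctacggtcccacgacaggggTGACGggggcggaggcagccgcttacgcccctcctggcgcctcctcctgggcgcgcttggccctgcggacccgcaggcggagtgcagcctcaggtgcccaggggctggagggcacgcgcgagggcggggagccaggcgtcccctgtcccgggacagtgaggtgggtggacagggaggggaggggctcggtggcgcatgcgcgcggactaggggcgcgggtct
Creb3l3: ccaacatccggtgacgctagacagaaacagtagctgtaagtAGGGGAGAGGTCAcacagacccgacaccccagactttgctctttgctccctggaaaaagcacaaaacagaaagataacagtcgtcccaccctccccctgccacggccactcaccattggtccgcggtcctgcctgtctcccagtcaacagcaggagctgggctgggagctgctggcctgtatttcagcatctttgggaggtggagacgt
Plin2: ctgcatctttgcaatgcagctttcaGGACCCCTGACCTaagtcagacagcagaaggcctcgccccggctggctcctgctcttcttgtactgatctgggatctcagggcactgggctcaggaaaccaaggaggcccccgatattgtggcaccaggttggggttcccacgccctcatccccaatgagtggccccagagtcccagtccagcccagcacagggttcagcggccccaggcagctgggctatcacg

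The match in Creb3l3 lay 209 to 197 bases before the start and that in Plin2, on the opposite strand, 225 to 213 bases before it, each with 2 mismatches. Creb3l3 has a further annotated start, and the window with the closer match was printed. TGACG also stands in the printed Creb3l3 sequence and was left unmarked there. In the Ppara window the closest match to the repeat had 4 mismatches and was not marked. On both strands of the windows of 300 bases (250 before to 50 after each start), a match with at most 2 mismatches was found in 3 of 37 windows, of 32 of the genes, those of Creb3l3, Etfa and Plin2, and in 3.86% of all 32851 windows. The exact repeat was in 0 of the 37 windows and in 0.0396% of all windows. The single hexamer AGGTCA, which the repeat contains, was in 7 of the 37 and in 16.3% of all, and TGACG in 9 of the 37 and in 20.8% of all. CTTTGAT, the core read by the TCF factors of the Wnt pathway, was in 1 of the 37, that of Acot1, and in 3.73% of all. Decr1, Hsd17b4, Acat1, Angptl4 and Acaa2 had no window in the table used. Such matches describe the letters and do not show binding.

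**Figure D2:**
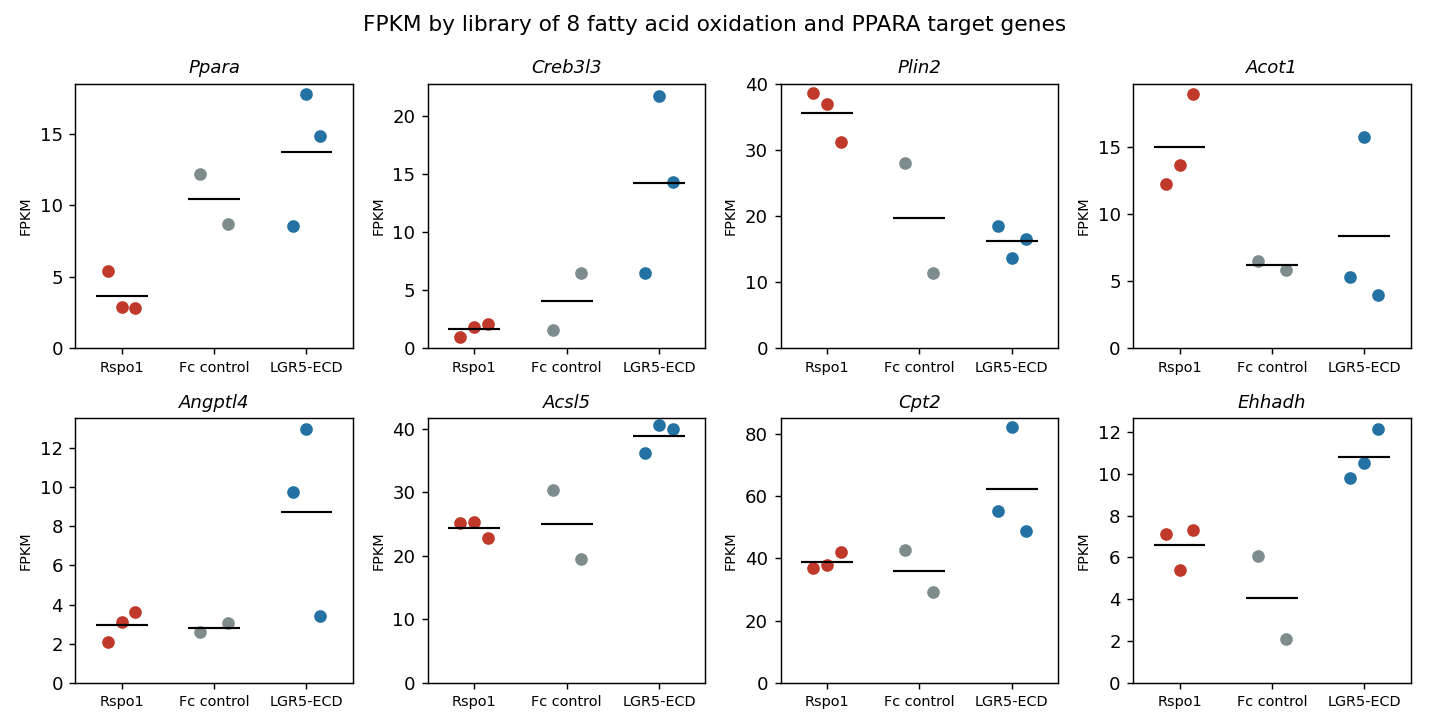
FPKM (y axis, linear, from 0) of 8 genes in each library, by group, with points for libraries and black lines for group means. Ppara is lowest in Rspo1 in every library, and Creb3l3 is lowest there by mean, with 1 control within its Rspo1 range. Plin2 and Acot1 are highest in Rspo1 by mean, and Acsl5, Cpt2, Ehhadh and Angptl4 are highest by mean in LGR5-ECD.

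The targets outside the oxidation pathways moved in different directions. Plin2, whose protein coats lipid droplets, stood at 38.7, 36.9 and 31.2 FPKM in Rspo1, 28.03 and 11.4 FPKM in the control and 18.4, 13.7 and 16.5 FPKM in LGR5-ECD. The Rspo1 libraries lay above all others, and the controls were further apart than the libraries of either treated group. The log2 change against LGR5-ECD was 1.09 (SE 0.29, limma adjusted p = 0.0411). This call was lost without any single treated library (adjusted p 0.0616 to 0.134), with a pseudocount of 0.1 (0.0560) and with no filter on low values (0.0987), while the log2 change stayed between 0.98 and 1.18. Angptl4, a secreted inhibitor of lipoprotein lipase, was listed at 2.08, 3.10 and 3.63 FPKM in Rspo1, 2.58 and 3.04 FPKM in the control and 9.78, 12.98 and 3.44 FPKM in LGR5-ECD. LGR5-ECD replicate 3 was at the level of the other groups and the other LGR5-ECD libraries were above all of them. The log2 change of Angptl4 was -1.17 (SE 0.39, limma adjusted p = 0.0952), and -1.66 (adjusted p = 0.00429) without LGR5-ECD replicate 3. Pdk4, whose kinase restrains glucose oxidation, was low and uneven, at 3.01, 1.04 and 2.98 FPKM in Rspo1, 1.02 and 1.72 FPKM in the control and 6.02, 7.21 and 0 FPKM in LGR5-ECD (adjusted p = 0.853). The 0 was in the library with the fewest genes detected.

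Acot1 and Acot2 are neighbouring close copies that encode a cytosolic and a mitochondrial acyl-CoA thioesterase. Of the stretches of 50 bases in the longest Acot1 transcript of GENCODE M21, 23.7% were also found in Acot2 transcripts, so the split of reads between them is uncertain. Acot1 was at 12.3, 13.7 and 18.9 FPKM in Rspo1, 6.47 and 5.84 FPKM in the control and 5.29, 15.7 and 3.95 FPKM in LGR5-ECD. Only LGR5-ECD replicate 2 reached the Rspo1 range. The log2 change between the treated groups was 0.97 (SE 0.39, limma adjusted p = 0.170), and 1.49 (adjusted p = 0.0127) without LGR5-ECD replicate 2. Acot2 had a log2 change of 0.08 (adjusted p = 0.943). The ratio of Acot1 to Acot2 was 1.42, 1.25 and 1.66 in Rspo1, 0.599 and 0.791 in the control and 0.599, 0.652 and 1.02 in LGR5-ECD. This ratio, which does not depend on library scaling, was at least 1.25 in the Rspo1 libraries and lower in all others. It was looked at after the values had been seen and was not tested.

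**Figure D3:**
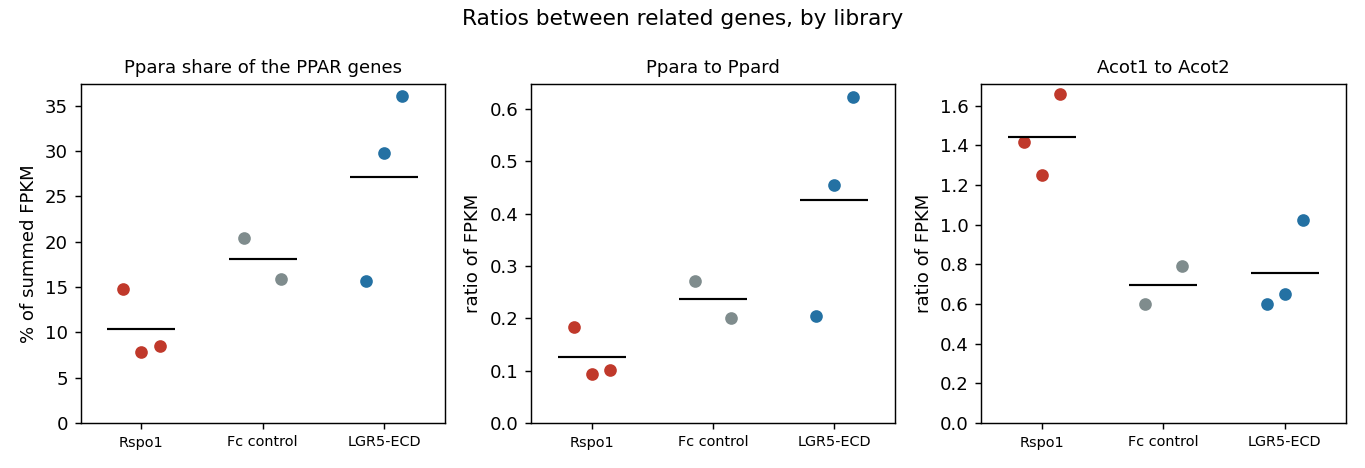
The share of Ppara in the summed FPKM of Ppara, Ppard and Pparg (left, percent), the ratio of Ppara to Ppard (middle) and the ratio of Acot1 to Acot2 (right), per library (points) with group means (lines). Rspo1 libraries have the lowest Ppara shares, at most 14.8%, and the highest ratios of Acot1 to Acot2, at least 1.25.

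For the genes that bring fatty acids into mitochondria, the summed FPKM was 127.6 to 146.5 in Rspo1, 101.6 to 164.2 in the control and 164.9 to 255.7 in LGR5-ECD. Acsl5, an acyl-CoA synthetase abundant in small intestine, was at 25.2, 25.4 and 22.8 FPKM in Rspo1, 30.4 and 19.6 FPKM in the control and 36.2, 40.6 and 40.0 FPKM in LGR5-ECD. All LGR5-ECD libraries were above all libraries of the other groups. Its log2 change between the treated groups was -0.65 (SE 0.19, limma adjusted p = 0.0673), a miss that became a call in 5 of 15 alternatives. These were both scalings between libraries (-0.72 and -0.67, adjusted p = 0.0202 and 0.0269), the fit of the treated groups alone (0.0256) and the fits without 1 of the controls (0.0267 and 0.0261). Cpt2, the inner membrane transferase of the shuttle, was at 36.8, 37.8 and 41.9 FPKM in Rspo1, 42.6 and 29.2 FPKM in the control and 55.2, 82.2 and 48.7 FPKM in LGR5-ECD. Here too LGR5-ECD lay above both other groups without overlap (log2 change against Rspo1 -0.63, SE 0.23, limma adjusted p = 0.126), and only the scalings made it a call (adjusted p = 0.0383 and 0.0385).

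Cpt1a, the outer membrane transferase that sets the pace of entry, overlapped between all groups. It was at 46.5, 66.1 and 62.8 FPKM in Rspo1, 73.4 and 42.9 FPKM in the control and 90.2, 117.2 and 55.8 FPKM in LGR5-ECD (adjusted p = 0.325 between the treated groups). The synthetases Acsl1 and Acsl3 had log2 changes of 0.01 and 0.02, with overlapping values from 8.41 to 18.9 FPKM and from 1.40 to 6.06 FPKM.

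The 8 genes of the mitochondrial spiral together reached 337.3, 330.9 and 342.3 FPKM in Rspo1, 357.4 and 216.2 FPKM in the control and 362.8, 507.5 and 381.3 FPKM in LGR5-ECD. The Rspo1 libraries were close to each other and below every LGR5-ECD library, and the controls lay on both sides of them. The most abundant of these genes, and of all 37, was Hadh, the hydroxyacyl-CoA dehydrogenase for short and medium chains, at 180.4, 167.3 and 168.4 FPKM in Rspo1, 183.4 and 101.6 FPKM in the control and 202.3, 239.3 and 197.4 FPKM in LGR5-ECD. The treated groups did not overlap, but the difference did not pass (log2 change -0.30, SE 0.23, limma adjusted p = 0.476).

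Acyl-CoA dehydrogenases carry out the opening step, each for its own chain length. The long chain gene Acadl was at 16.3, 17.9 and 21.3 FPKM in Rspo1, 17.7 and 9.94 FPKM in the control and 18.5, 36.9 and 34.3 FPKM in LGR5-ECD (log2 change between the treated groups -0.61, SE 0.29, adjusted p = 0.241). The very long chain gene Acadvl had all Rspo1 libraries (12.1 to 16.1 FPKM) below all LGR5-ECD libraries (16.7 to 30.3 FPKM), by a narrow gap and with adjusted p = 0.201. The medium chain gene Acadm and the short chain gene Acads had log2 changes of 0.08 and 0.26, with overlapping groups.

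Hadha and Hadhb encode the subunits of the trifunctional protein, which does the remaining steps for long chains, and lie head to head, with promoter windows that share 228 bases. Hadha ran from 34.5 to 58.1 FPKM and Hadhb from 8.82 to 24.5 FPKM over the 8 libraries, with log2 changes between the treated groups of -0.26 and 0.03. The ratio of Hadhb to Hadha was 0.428 to 0.492 in Rspo1, 0.485 and 0.256 in the control and 0.484, 0.422 and 0.245 in LGR5-ECD. Acaa2, the thiolase of the last step, ran from 25.2 to 75.1 FPKM, with the highest value in LGR5-ECD replicate 2 (adjusted p = 0.418).

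Apart from the thioesterase gene Acot2, the mitochondrial auxiliary genes pass electrons on or prepare unsaturated chains. Etfa and Etfb encode the subunits of the electron transfer flavoprotein, which takes electrons from the acyl-CoA dehydrogenases. Etfa was at 25.6, 18.3 and 19.2 FPKM in Rspo1, 23.5 and 20.5 FPKM in the control and 29.1, 30.1 and 32.5 FPKM in LGR5-ECD. Etfb was at 35.6, 39.4 and 43.9 FPKM in Rspo1, 55.1 and 66.3 FPKM in the control and 48.1, 65.5 and 51.3 FPKM in LGR5-ECD. For both genes the Rspo1 libraries lay below all LGR5-ECD libraries, but Etfb was also below the controls while Etfa overlapped with them. Neither passed against LGR5-ECD (log2 changes -0.53 and -0.45, limma adjusted p = 0.112 and 0.174). Etfdh, which hands the electrons to the respiratory chain, overlapped (-0.14, adjusted p = 0.832).

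Eci2, an enoyl-CoA isomerase found in mitochondria and peroxisomes, leaned the other way. It was at 12.5, 18.3 and 21.3 FPKM in Rspo1, 9.63 and 8.82 FPKM in the control and 12.4, 12.5 and 6.40 FPKM in LGR5-ECD. The lowest Rspo1 library met the highest LGR5-ECD library (log2 change 0.71, SE 0.28, limma adjusted p = 0.163). Its mitochondrial relative Eci1, the isomerase gene Ech1 and the dienoyl-CoA reductase gene Decr1 had log2 changes of -0.10, -0.06 and 0.16.

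The peroxisomal genes were mixed, with 3 positive and 2 negative log2 changes and 0 calls between the treated groups. Ehhadh, the bifunctional enzyme that is a classical PPARA target, was at 7.11, 5.41 and 7.32 FPKM in Rspo1, 6.06 and 2.08 FPKM in the control and 9.78, 10.49 and 12.1 FPKM in LGR5-ECD. The LGR5-ECD libraries were above all others (log2 change against Rspo1 -0.64, SE 0.30, limma adjusted p = 0.238). Hsd17b4, the other bifunctional enzyme, had a log2 change of 0.56 (SE 0.37, adjusted p = 0.415) with LGR5-ECD replicate 3 the lowest of all libraries at 3.31 FPKM. Pex11a, which promotes peroxisome division, was at 19.8 to 29.4 FPKM in Rspo1 and 27.1 to 40.6 FPKM in LGR5-ECD (a log2 change of -0.51, adjusted p = 0.210).

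The thiolase copies Acaa1a and Acaa1b share 34.0% of the stretches of 50 bases of the longest Acaa1a transcript, so the split of their reads is uncertain. Acaa1b was the least abundant of the 37 genes by mean, at 0.940 to 2.09 FPKM, against 8.66 to 12.5 FPKM for Acaa1a. Between the treated groups the log2 changes were 0.14 for Acaa1b and 0.04 for Acaa1a.

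Both ketone body genes had lower values in Rspo1 than in LGR5-ECD in every library, and neither passed. Bdh1, which interconverts acetoacetate and hydroxybutyrate, was at 81.6, 69.2 and 83.0 FPKM in Rspo1, 84.1 and 54.5 FPKM in the control and 109.2, 106.7 and 86.7 FPKM in LGR5-ECD (a log2 change of -0.37, SE 0.21, limma adjusted p = 0.3301). Acat1, the mitochondrial acetoacetyl-CoA thiolase, was at 15.9, 12.5 and 11.9 FPKM in Rspo1, 19.5 and 12.1 FPKM in the control and 20.7, 20.3 and 23.0 FPKM in LGR5-ECD (a log2 change of -0.64, SE 0.22, limma adjusted p = 0.104).

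**Figure D4:**
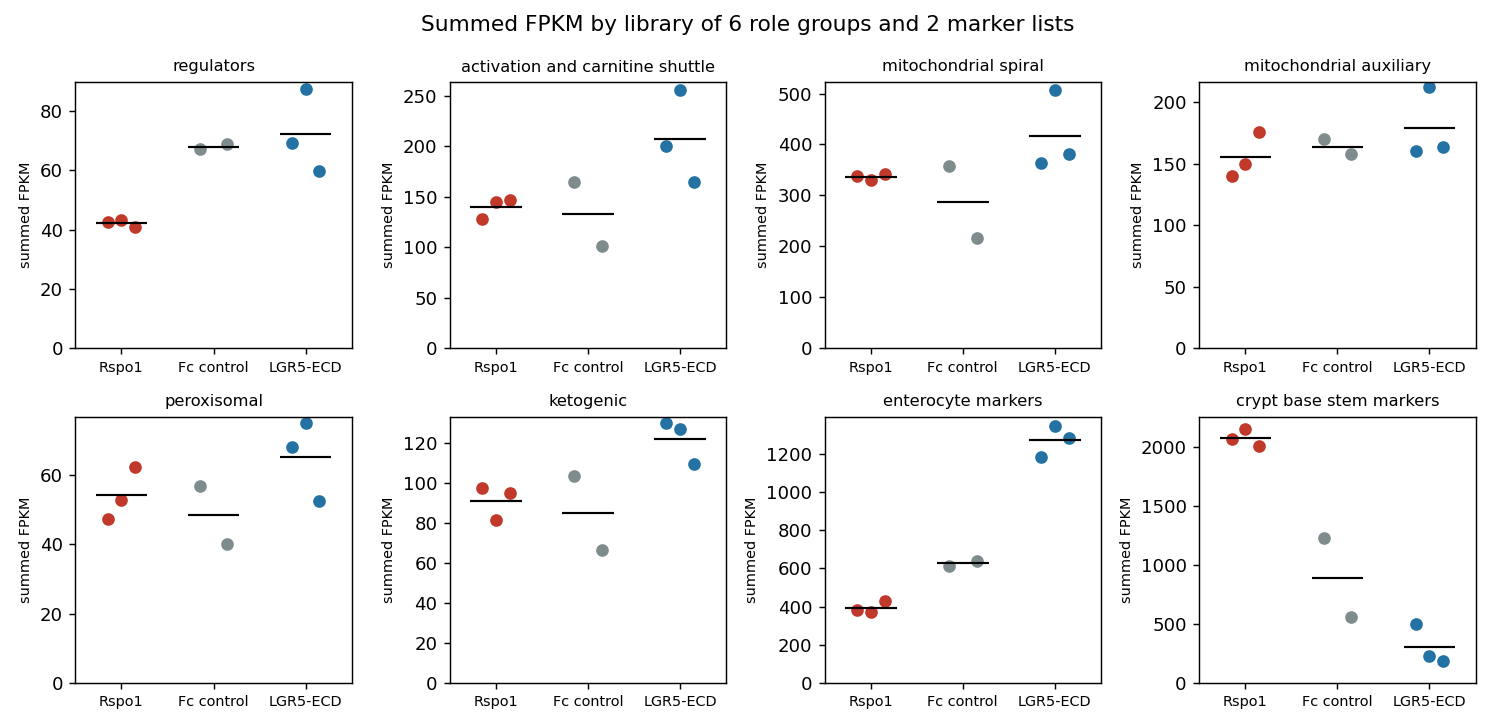
Summed FPKM per library (points, y axis from 0) with group means (lines) for 6 role groups and for the enterocyte and crypt base stem cell markers. The regulators are lowest in Rspo1, at 40.8 to 43.3 FPKM. The treated groups also do not overlap in the shuttle sums (127.6 to 146.5 FPKM in Rspo1, 164.9 to 255.7 FPKM in LGR5-ECD). The same holds for the spiral sums (330.9 to 342.3 FPKM and 362.8 to 507.5 FPKM). It also holds for the ketone body sums (81.7 to 97.5 FPKM and 109.7 to 129.98 FPKM). The auxiliary and peroxisomal sums overlap. The 4 PPAR targets outside these roles are not drawn, and only their sum lay the other way. It was 54.7 to 56.8 FPKM in Rspo1 and 23.9 to 49.6 FPKM in LGR5-ECD. Plin2, the most abundant of them, and Acot1 had positive log2 changes (1.09 and 0.97). Angptl4 and Pdk4 had negative ones (-1.17 and -0.27). The enterocyte and stem cell marker sums run in opposite orders across the groups.

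Markers of differentiation moved with the same contrast. Of 13 enterocyte markers, 11 fell and 0 rose in Rspo1 against LGR5-ECD, with a median log2 change of -1.79, and of 8 crypt base stem cell markers 8 rose, with a median of 2.01. The enterocyte markers summed to 382.9, 373.8 and 428.6 FPKM in Rspo1, 614.2 and 637.8 FPKM in the control and 1186, 1345 and 1285 FPKM in LGR5-ECD. The stem cell markers summed to 2006 to 2156 FPKM in Rspo1, 557.7 to 1225 FPKM in the control and 183.8 to 496.4 FPKM in LGR5-ECD. Goblet cell markers, of which 4 of 7 fell and 0 rose, summed to 159.1 to 596.2 FPKM in Rspo1 and 745.2 to 2397 FPKM in LGR5-ECD. The part of these differences in cell makeup in the values of Ppara, Creb3l3, Plin2 and the oxidation genes was not tested. Of 6 adipocyte markers, Adipoq, Plin1, Lep and Fabp4 were listed at 0 in all 8 libraries and Cfd stayed under 1 FPKM. The exception was Cidec, which encodes a lipid droplet protein and fell in Rspo1 (log2 change -0.99, limma adjusted p = 0.0467). The immune markers summed to 0.210 to 14.1 FPKM, with only Lyz2 past the filter, and the mesenchymal and endothelial markers to at most 2.08 FPKM. The hepatocyte markers summed to 19.0 to 34.9 FPKM in Rspo1, 17.0 and 15.2 FPKM in the control and 2.68 to 7.43 FPKM in LGR5-ECD. Of these 5 markers Alb, Apoa2 and Serpina1a stayed under 1 FPKM in all 8 libraries, and Cyp2e1 rose in Rspo1 against LGR5-ECD (log2 change 2.56, SE 0.26, limma adjusted p = 0.00037). Of 6 Paneth cell markers tested 1 rose and 1 fell, of 6 enteroendocrine markers 1 rose and 0 fell, and of 5 tuft cell markers 0 passed in limma, with 2 lower at an unadjusted p under 0.05. The part of these lists in the results was not tested.

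In the wider pathway, 81 of 101 further genes passed the filter, and between the treated groups 1 rose and 7 fell (9.88% called, against 8.45% of all tested genes), with a median log2 change of -0.05. Of 13 other PPAR targets tested, 3 fell and 1 rose (30.8% called). Fabp2 and Fabp1, the intestinal and liver type fatty acid binding proteins, fell by 2.58 (SE 0.36) and 2.05 (SE 0.33) on the log2 scale, and Slc27a4, a fatty acid transport protein of the brush border, fell by 1.38 (SE 0.20), with limma adjusted p of 0.00200, 0.00395 and 0.00215. These genes are also enterocyte genes. Pnpla2, the triglyceride lipase ATGL that acts on lipid droplets, rose, at 125.2, 118.9 and 130.4 FPKM in Rspo1, 72.9 and 52.5 FPKM in the control and 73.2, 69.5 and 68.2 FPKM in LGR5-ECD. All Rspo1 libraries were above all others (log2 change 0.82, SE 0.18, limma adjusted p = 0.0174), a call lost without LGR5-ECD replicate 2 or any single Rspo1 library (adjusted p 0.0503 to 0.0741).

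Of 13 PPAR partners and coregulators tested, 2 fell and 0 rose (15.4% called, against 8.45% of all tested genes). Hnf4g, a nuclear receptor of enterocytes, was at 3.88, 3.34 and 4.18 FPKM in Rspo1, 5.80 and 4.93 FPKM in the control and 14.9, 15.4 and 12.0 FPKM in LGR5-ECD (a log2 change of -1.65, SE 0.21, limma adjusted p = 0.00120). The groups were stepped without overlap. Ppargc1b, the relative of Ppargc1a, was at 10.2 to 11.8 FPKM in Rspo1, 19.2 to 19.5 FPKM in the control and 20.9 to 23.2 FPKM in LGR5-ECD (a log2 change of -0.94, SE 0.17, limma adjusted p = 0.00821). Of 32 other peroxisomal genes tested, 2 fell and 0 rose (6.25% called, against 8.45% of all tested genes). Of 19 other mitochondrial genes and 4 other ketone body genes tested, 0 passed in limma. At an unadjusted p under 0.05, 3 of the mitochondrial genes were higher and 1 lower, and 1 ketone body gene was higher. Of all tested genes, 13.9% were higher and 8.93% lower at that threshold.

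The comparison of R-spondin gain of function with the control had 3 and 2 libraries. None of the 37 genes passed, against 1.25% of all tested genes (0.672% higher and 0.576% lower). At an unadjusted p under 0.05, 3 were higher (Plin2, Acot1 and Eci2) and 3 lower (Ppara, Ppard and Etfb), against 12% and 5.09% of all tested genes. The median log2 change of the 37 genes, 0.19, was close to the shift of all tested genes, 0.16, and 20 of the 37 lay above it. Both scalings brought the shift of all genes to 0.01. The median of the 37 genes was 0.42 without control 1, -0.07 without control 2, 0.02 with median-ratio scaling and -0.05 after quantile normalization. All Rspo1 libraries lay above both controls in 7 of the 37 genes (18.9%) and below them in 3 (8.11%), against 26.2% and 12% of all tested genes and 38.2% in either direction. Ppara had the smallest adjusted p, with a log2 change of -1.32 (SE 0.35, limma adjusted p = 0.0945), and Ppard one of -0.58 (SE 0.24, adjusted p = 0.262). All 5 regulators had negative log2 changes, and in Ppara and Ppard the Rspo1 libraries lay below both controls. Plin2 had a log2 change of 0.94 (SE 0.32, adjusted p = 0.173) and Acot1 one of 1.14 (SE 0.44, adjusted p = 0.228). In the wider pathway only Pnpla2 passed among 81 genes (log2 change 1.00, SE 0.20, limma adjusted p = 0.0402), a call that held in 5 of 14 alternatives and had adjusted p = 0.241 without control 2.

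The comparison of R-spondin loss of function with the control shares the control libraries with the previous one. None of the 37 genes passed, against 0.716% of all tested genes (0.445% higher and 0.271% lower). At an unadjusted p under 0.05, 8 were higher and 0 lower, against 10.3% and 6.57% of all tested genes. The 8 were Creb3l3, Acsl5, Cpt2, Acadl, Hadh, Ehhadh, Bdh1 and Angptl4, which span the regulators, the shuttle, the spiral, the peroxisome and the ketone body pathway. The median log2 change was 0.33, against 0.05 over all tested genes, and 31 of the 37 lay above the all-gene median. In 12 of the 37 (32.4%) all LGR5-ECD libraries were above both controls, against 18.2% of all tested genes, and in 1 (2.70%) below them, against 12.7%. The largest log2 change was that of Creb3l3, at 1.65 (SE 0.52, limma adjusted p = 0.161), and the smallest adjusted p that of Ehhadh, with a log2 change of 1.34 (SE 0.33, adjusted p = 0.103). In the wider pathway only Hnf4g passed among 81 genes (log2 change 1.24, SE 0.23, limma adjusted p = 0.0476), and the call held in 4 of 14 alternatives.

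The marker lists differed from the control as well. Paneth cell markers summed to 18.1 and 389.9 FPKM in the controls, 1178 to 1941 FPKM in Rspo1 and 1263 to 3487 FPKM in LGR5-ECD, and of 6 tested 4 rose in Rspo1 and 3 in LGR5-ECD. Of the 13 enterocyte markers 3 fell in Rspo1 and 2 rose in LGR5-ECD. The part of these markers in the values against the control was not tested.

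The comparisons with the control rest on 2 libraries that differed from each other. In 29 of the 37 genes control 2 was the lower, and the spiral genes summed to 357.4 FPKM in control 1 and 216.2 FPKM in control 2. Without control 2 the median log2 change of the 37 genes in LGR5-ECD was 0.09, and without control 1 it was 0.55. Without control 1, Ehhadh passed in both comparisons with the control (adjusted p = 0.0436 in Rspo1 and 0.0236 in LGR5-ECD) and Plin2 in Rspo1 (0.0165). Without LGR5-ECD replicate 3, Angptl4 passed in LGR5-ECD (log2 change 1.69, adjusted p = 0.0374).

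The spread between libraries differed among the groups. The median coefficient of variation of FPKM over the 37 genes was 15.9% in Rspo1, 30.6% in LGR5-ECD and 26.3% in the control, close to 18.2%, 26.6% and 24.2% over all tested genes. In LGR5-ECD, replicate 2 was the highest library in 23 of the 37 genes and replicate 3 the lowest in 22. Hadh varied least among the Rspo1 libraries (4.22%) and Pdk4 most (48.3%). By group means, 17 of the 37 genes had the order LGR5-ECD, Rspo1, control from high to low, and 9 had LGR5-ECD, control, Rspo1. A further 7 had Rspo1, LGR5-ECD, control, 3 had control, LGR5-ECD, Rspo1, and 1, Plin2, had Rspo1, control, LGR5-ECD. These orders are of FPKM without scaling between libraries, and their shares over all tested genes were not computed. The median log2 change of all tested genes against the control was 0.16 in Rspo1 and 0.05 in LGR5-ECD. For Ppara, Creb3l3 and Plin2, the genes called between the treated groups, the control mean lay between the means of those groups. The genes were picked by the difference between those groups, and the place of the control was not tested. Singly, the Plin2 controls (28.03 and 11.4 FPKM) lay on both sides of LGR5-ECD, and the lower Creb3l3 control (1.60 FPKM) lay within the Rspo1 range.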

How the data were processed

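The authors deposited 1 table of FPKM values for 8 libraries, with genes named by symbol. The mouse build mm9 is listed per the submitters' processing notes, together with Cufflinks, DESeq2, HTSeq and TopHat. Their versions and roles, the annotation and the strandedness were not given in the sources used here. Of 24510 rows, 27 with a date for a symbol and 391 identical repeats were dropped, and 89 symbols on several rows were summed. Genes with at least 1 FPKM in at least 2 libraries were kept. The log2(FPKM + 1) values were fitted with limma 3.58.1 in R 4.3.3, with a mean per group, a trended prior variance and two-sided tests, using all 8 libraries. Tables and figures used Python 3.11.15 with pandas 2.3.3 and matplotlib 3.10.9.

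Low values were examined for steps of whole reads. Ratios of values under 0.3 FPKM between control 1 and another library gathered within 0.04 (log2) of 1 step in only 5.12% to 9.84%. Whole reads therefore could not be derived, and count models were left out. A simulation was also run, in which only 100 genes were changed at each size. Its rates were not split by FPKM level. They therefore do not give the recovery for the low genes among the 37. On simulated data with the spread of the 11454 genes, 36% of changes of 1 and 93% of changes of 2 (log2) were recovered for Rspo1 against LGR5-ECD, with 4 false calls; 37% and 91% for Rspo1 against Fc, with 5; and 24% and 85% for LGR5-ECD against Fc, with 7.

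The members, lists and tests were chosen with earlier results of these data known. All 37 members are reported; of the wider lists, up to 4 called genes per list and comparison, except that genes of the other peroxisomal list are given only as a count and not reported here by name.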

Additional observations from a re-analysis of the deposited data

How the results depend on the processing

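The counts of called genes among the 37 were recomputed with another pseudocount, no filter, a stricter filter, 2 scalings, the compared groups alone and without each library in turn. Between Rspo1 and LGR5-ECD the count was 3; it was 5 with median-ratio scaling and 5 with quantile normalization, through Acsl5 and Cpt2, and both scalings kept Ppara, Creb3l3 and Plin2. It was 2, without Plin2, with a pseudocount of 0.1 and with no filter. Without single libraries it ran from 1 (without Rspo1 replicate 2) to 4. Against the control the count of 0 ran from 0 to 2 for Rspo1 and from 0 to 1 for LGR5-ECD without single libraries, and was 0 under every other setting run. Over all genes, calls ran from 415 to 1109, from 23 to 481 and from 0 to 174 under the alternatives, against 968, 143 and 82. The cause of these shifts was not tested. For the single genes with a call in some setting, 358 values under alternatives stayed on their side of the threshold, 68 calls were lost, 13 were gained and 0 changed sign. A fit of the treated groups alone with the replicate number as a block (replicate block) gave 3 calls and 616 calls over all genes. The 3 calls were the same genes as in the main fit. Without the block, the treated groups alone gave 4 calls, with Acsl5 added, and 1056 calls over all genes. Same-numbered libraries had correlations of deviations of -0.02, -0.02 and -0.05, so the numbers were not taken as pairs. No paired analysis was possible against the control because its columns carry no replicate number of the labels. The number of libraries and the unknown read totals limit all values, most for genes under a few FPKM.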
